A study of Mus musculus with 2 samples.

Results

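The genes described here are 9 that carry, convert, bind or respond to retinoids, the vitamin A compounds: Crabp1, Crabp2, Rbp4, Stra6, Rdh10, Rdh11, Dhrs3, Rarb and Cyp26a1. They were chosen by gene symbol, with earlier results of these data known, so counts among them are a description. Each was read by its brightest probe set, out of 12393 genes that a probe set of 1 gene names on the array. The series profiled epithelial cells of the mouse uterus at day 4 of pregnancy with a short oligonucleotide array, the Affymetrix Mouse Genome 430A 2.0. The control group carried Stat3 flox, an allele that Cre recombinase can delete, and the other group was labelled as Stat3 knockout. Both samples bear a title that names Stat3 flox control mice, so the genotype label was used to tell them apart. Their extraction text speaks of human endometrial stromal cells, whereas all other labels and the array design are of mouse. For the Cre driver, the strain and the age of the mice, the sources used here give nothing. Epithelium was freed with trypsin, first cold and then at 37 C, and the cells were not cultured or treated. Each group was 1 array of pooled RNA, with n = 3 per sample in the design text, so no difference has a replicate check and no p-value was computed. The number of arrays limits the precision, and differences are described by size. In such bulk RNA, fewer cells of a type and less RNA per cell cannot be told apart.

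Retinol travels in blood on retinol-binding protein and is taken up by cells that carry its receptor. Inside the cell it is oxidised to retinaldehyde, in a step that can be reversed, and then to retinoic acid, which binds nuclear receptors on DNA and switches genes on. Binding proteins hand retinoic acid to the receptors or to the enzymes that break it down, and several of these genes are themselves switched on by retinoic acid, which makes a feedback loop. In the uterus, retinoid enzymes and binding proteins are known to be controlled by the ovarian steroids around the time of implantation.

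Of the 9 genes, Crabp2, Rdh11 and Cyp26a1 were lower in the knockout array by 2-fold or more, and Dhrs3 was higher by 2-fold or more. Rdh10 and Stra6 lay within 2-fold, and Crabp1, Rbp4 and Rarb were too dim on both arrays to have a ratio. Crabp2 differed most, at least 12.5-fold lower. Across all 8304 genes with a ratio, 9.92% were lower and 7.37% higher by 2-fold or more, and the median log2 ratio (knockout over control) was 0.05. The 6 retinoid genes with a ratio had a median log2 ratio of -0.90, with 4 below 0 and 2 above. These values describe genes chosen with earlier results of these data known, and are not a test against all genes. With the genes cut into 3 equal groups by mean signal, 14.4% of the dim group, to which Crabp2, Rdh11, Cyp26a1 and Stra6 belong, passed the lower limit. Dhrs3 lay in the middle group, where 6.65% of genes passed the upper limit, and Rdh10 in the bright group, where 6.68% did. That mean takes in the knockout signal, so a low knockout signal itself moves a gene towards the dim group. The shares by group are therefore not independent of the ratios, and are given as a description.

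**Figure D1:**
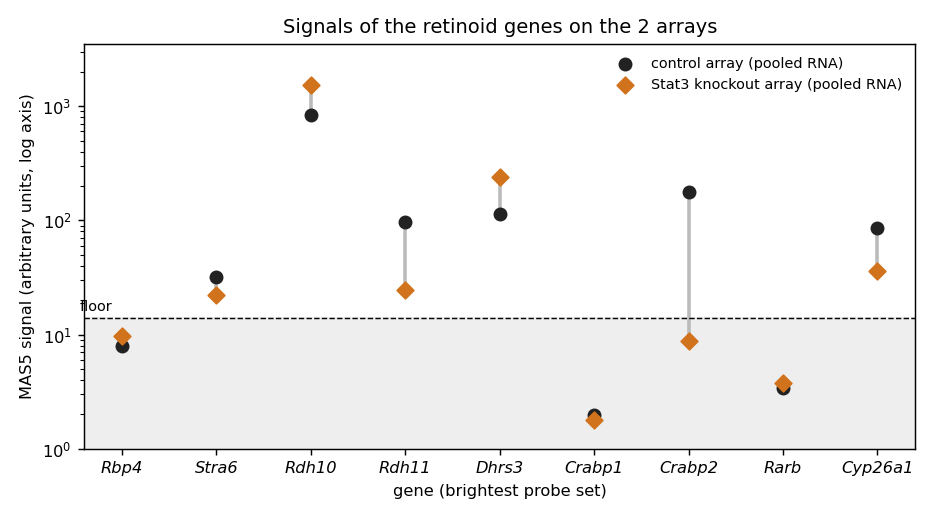
MAS5 signal (log axis, arbitrary units) of the brightest probe set of each retinoid gene on the control array (circles) and on the Stat3 knockout array (diamonds), 1 array of pooled RNA per group. The dashed line is the floor of 14.0, under which a signal was not read as a level; Crabp2 crosses it, from 176 to 8.80, and Crabp1, Rbp4 and Rarb lie under it on both arrays.

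The values are MAS5 signals, background-corrected brightness of a probe set in linear units, and both arrays had the same trimmed mean of 150.1. Signals under 14.0, the 40th percentile of all signals outside the Affymetrix controls, were set to that floor. A fold with 1 array under the floor is given as "at least". Stat3 itself had signals of 582 on the control array and 186 on the knockout array (probe set 1460700_at) and of 430.0 and 160.0 (1426587_a_at), while 1424272_at was under the floor on both arrays. Whether those probe sets lie in the deleted part was not determined. Among 2853 genes with a second probe set over the floor, the SD of the log2 ratio between probe sets of a gene was 0.28 per probe set, an error that covers neither animals nor arrays. Of 11 epithelial markers, 0 were under the floor on both arrays, and their signals summed to 22095 (control) and 22730 (knockout). Krt7 was 3.46-fold lower, and Cldn4 and Ehf were 2.09-fold and 2.35-fold higher.

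Markers of other cells were also read. The 11 stromal markers summed to 2638 (control) and 3630 (knockout). Their median log2 ratio was 0.31, with 0 past 2-fold and 1 under the floor on both arrays, the stromal transcription factor gene Hand2. Among the 10 with a ratio, 9 had one above 0 and 1 below, that of Pdgfra (27.8 and 17.2, 1.61-fold lower). The 12 leukocyte markers summed to 506 and 721, with a median of 0.69 and 5 under the floor on both arrays, the T cell receptor component genes Cd3e and Cd3g among them. Of the 7 with a ratio, 6 had a log2 ratio above 0 and 1 below, that of Cd68 (81.1 and 44.4, 1.83-fold lower). Only C1qa passed 2-fold, at 2.03-fold higher (33.2 and 67.4). The 8 smooth muscle markers summed to 177 and 138 and the 8 endothelial markers to 92.3 and 78.0, and in each list 5 of 8 were under the floor on both arrays, Myh11 and Pecam1 among them. The part of these cells in the retinoid differences was not tested.

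The genes of retinol supply came first in the pathway and were dim. Rbp4, which encodes the plasma carrier of retinol, had signals of 7.98 on the control array and 9.69 on the knockout array (probe set 1426225_at), both under the floor, so no ratio was formed. Stra6, which encodes the membrane receptor for that carrier and is itself switched on by retinoic acid in other cells, had signals of 31.8 on the control array and 22.1 on the knockout array (1422723_at). The control array was the higher of the pair by 1.44-fold (log2 ratio -0.53), and 20.4% of genes with a ratio had one at or below that of Stra6. It was therefore not called, and 1 probe set read each of these genes.

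Among genes of the enzymes that convert retinol and retinaldehyde into each other, Rdh10 and Dhrs3 had higher signals in the knockout. Rdh11, described after them, had a lower one. Rdh10, the retinol dehydrogenase that makes retinaldehyde in the first step towards retinoic acid, had signals of 834 on the control array and 1541 on the knockout array (1426968_a_at), 1.85 times the control (log2 ratio 0.89), just inside the 2-fold limit. Dhrs3, which encodes a reductase that turns retinaldehyde back into retinol and is induced by retinoic acid, had signals of 115 and 240.5 (1448390_a_at), or 2.10-fold higher (1.07), just outside the limit. Of all genes with a ratio, 9.69% had one at or above that of Rdh10 and 6.20% at or above that of Dhrs3. The log2 ratios of the pair differed by 0.18, or 0.47 times the spread that probe sets give to such a difference. These enzymes, which catalyse opposite steps, were therefore not separated by their ratios. Both probe sets carry the suffix _a_at, which marks probe sets that can read several transcripts of a gene, and neither gene has another probe set of its own here.

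Rdh11 had the lower signal in the knockout with both of its probe sets. It encodes a reductase and dehydrogenase of retinoids and other aldehydes, and has been described in mouse as a target of SREBP, the factor that drives sterol synthesis genes. Probe set 1418760_at had signals of 95.8 on the control array and 24.4 on the knockout array, a level 3.93-fold lower (log2 ratio -1.97), and 1449209_a_at had 62.1 and 15.9, or 3.90-fold lower (-1.96). The second probe set therefore gave the same fold from dimmer signals, with the knockout close to the floor of 14.0. Of genes with a ratio, 3.17% had one at or below that of Rdh11. The log2 ratios of Rdh10 and Rdh11 lay 2.86 apart, 7.22 times the spread that probe sets give to such a difference. That spread is pooled over genes of all signal levels and covers neither animals nor arrays.

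The cellular binding proteins were read by 1 probe set each. Crabp1, which encodes a retinoic acid-binding protein linked to breakdown of its ligand, had signals of 1.99 on the control array and 1.80 on the knockout array (1448326_a_at), under the floor on both arrays. Crabp2, whose protein carries retinoic acid to its nuclear receptors, had signals of 176 on the control array and 8.80 on the knockout array (1451191_at). The control value was well over the floor and the knockout value under it, which makes Crabp2 at least 12.5-fold lower (log2 ratio of -3.65 at the bound). Only 0.590% of genes with a ratio had one at or below that bound. Since the knockout value is under the floor, the ratio lay at least 1.67 below that of Rdh11, the next lowest of the 6.

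**Figure D2:**
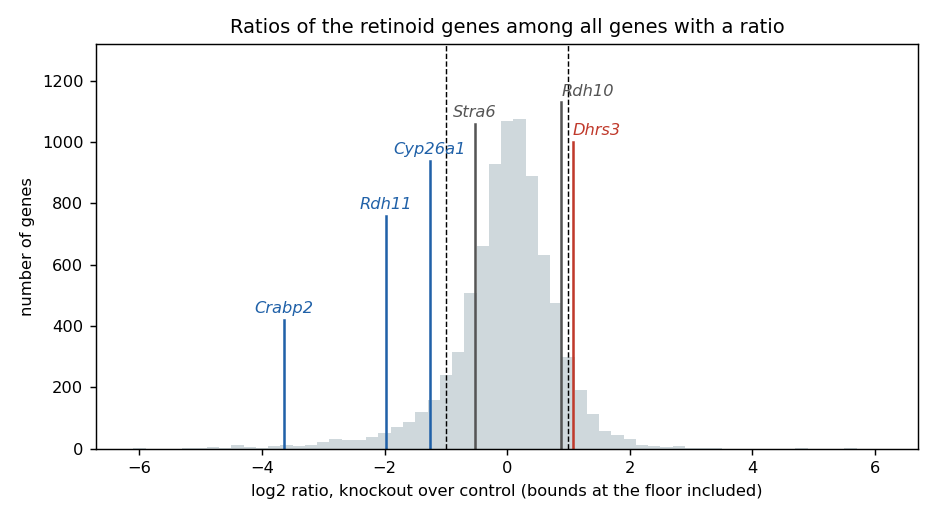
Histogram of the log2 ratio (knockout over control) of the 8304 genes with a ratio, with the number of genes on the vertical axis and bounds entered at their bound; vertical lines mark the 6 retinoid genes with a ratio and dashed lines the 2-fold limits. The heights of the coloured lines carry no value. Crabp2 at -3.65 lies in the lower tail, while Rdh10 (0.89) and Dhrs3 (1.07) lie on either side of the upper limit.

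The last group are genes that answer retinoic acid directly. Rarb encodes retinoic acid receptor beta and Cyp26a1 the cytochrome P450 that hydroxylates retinoic acid for removal, and both are textbook examples of genes with a retinoic acid response element close to their start. The deposited data were set beside the sequence at those starts, from RefSeq (GRCm38.p6). Each sequence is the 250 bases before the annotated start, 5′ to 3′ on the strand of the gene. Capitals mark a DR5 match, the direct repeat of half-sites to which retinoic acid receptors bind as dimers with RXR.
Rarb: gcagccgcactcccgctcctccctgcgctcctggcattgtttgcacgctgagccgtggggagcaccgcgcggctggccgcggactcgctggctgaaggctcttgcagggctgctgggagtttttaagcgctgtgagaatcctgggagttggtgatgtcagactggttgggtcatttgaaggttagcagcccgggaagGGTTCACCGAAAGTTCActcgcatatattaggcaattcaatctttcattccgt
Cyp26a1: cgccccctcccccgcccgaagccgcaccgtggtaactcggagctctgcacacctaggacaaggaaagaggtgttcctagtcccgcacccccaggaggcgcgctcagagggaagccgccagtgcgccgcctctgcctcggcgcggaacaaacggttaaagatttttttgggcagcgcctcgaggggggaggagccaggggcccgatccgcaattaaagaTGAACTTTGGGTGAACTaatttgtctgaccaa
The Rarb window is chr14:16575477-16575726 on the minus strand, and its match, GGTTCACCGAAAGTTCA, runs from 53 to 37 bases before the start. The Cyp26a1 window is chr19:37697558-37697807 on the plus strand, and its match, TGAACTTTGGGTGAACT, lies on the opposite strand from 32 to 16 bases before the start.

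The DR5 motif searched was a pair of half-sites, each either AGGTCA, its variant GGGTCA, its variant AGTTCA or its variant GGTTCA, in the same orientation with 5 bases between them, on both strands. It was found in 29 of 32851 promoter windows (0.0883%). Of the 9 genes, 7 had promoter windows, 14 windows in all, and the DR5 match was present in those of Rarb and Cyp26a1 alone. Crabp2 and Rdh10 had no window, so no motif was searched for them. With 1 or 2 bases between the half-sites (DR1 and DR2), 0.164% and 0.173% of all windows held a match and 0 of the 14 did. Lone half-sites, which 38.6% of windows hold, were also present in both windows of Rdh11 and in 1 of 2 of Rbp4. The STAT motif TTCNNNGAA, present in 7.02% of all windows, was matched in the Rarb window only, as TTCACCGAA inside the DR5 match. The sterol element letters TCACNCCAC, present in 1.05% of all windows on either strand, were matched in 0 of the 14, those of Rdh11 included. A match is a description of letters and not of binding, and no match says only that the letters are not in these windows.

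The signals of this pair were unlike. Rarb had 3.42 in the control and 3.78 in the knockout (1454906_at), both under the floor, so its level was not measured on either array. Cyp26a1 had signals of 86.3 on the control array and 35.9 on the knockout array (1419430_at), over the floor on both, or 2.41-fold lower (log2 ratio -1.27). Of genes with a ratio, 7.08% had one at or below that of Cyp26a1. Its ratio was 0.71 above that of Rdh11, or 1.78 times the spread of such a difference between probe sets. It was 2.34 below that of Dhrs3, or 5.91 times that spread, which covers neither animals nor arrays. Of the 28 genes with a DR5 match in a window, 6 were on the array. Besides Rarb and Cyp26a1 these were Blvrb, a biliverdin reductase gene, with signals of 40.7 and 42.9, and Hbb-y, Ppbp and Tnfsf13b, all under the floor on both arrays.

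The rest of the pathway was read from 6 further lists with 71 genes, of which 58 were on the array and 34 had a ratio. The lists were also chosen with earlier results of these data known, so their counts are a description. In these lists 5 of 34 genes passed the limit upwards and 7 downwards, with 22 in between, beside shares of 7.37% and 9.92% over all genes, and the median log2 ratio was 0.23 against 0.05 in all genes with a ratio. Of the carriers and uptake genes, 4 of 10 had a ratio. Lrp2, which encodes megalin, an endocytic receptor that takes up retinol-binding protein, had signals of 1481 on the control array and 2565 on the knockout array and stayed within the limit, at 1.73-fold higher. Scarb1, a lipoprotein and carotenoid receptor gene, was at least 3.33-fold lower by 1437378_x_at (46.7 in the control). Its probe set 1455820_x_at was at least 3.69-fold lower (51.9), and 1416050_a_at at least 1.82-fold lower (25.5), a bound inside the limit. Lpl, the lipoprotein lipase gene, was at least 2.41-fold lower (33.8), while its other probe set was under the floor on both arrays. Fabp5, whose protein can carry retinoic acid to another nuclear receptor, had signals of 238 and 123, or 1.94-fold lower, while its dimmer probe set was 2.56-fold lower (90.6 and 35.4). Ttr, Rbp2, Rbp3, Rbp7, Cubn and Cd36 were under the floor on both arrays. Of the storage and carotene genes only Dgat1 (77.2 and 62.4) and Lipe (21.0 and 24.6) had a ratio, both within 2-fold, and Lrat, which encodes the main retinol esterifying enzyme, was under the floor on both arrays.

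Of 18 other dehydrogenase genes of retinol and retinaldehyde, 13 had a ratio, 3 past the upper limit (7.37% over all genes) and 2 past the lower one (9.92%), and their median log2 ratio was 0.50. Adh1, an alcohol dehydrogenase gene that also oxidises retinol, had signals of 28.7 on the control array and 191 on the knockout array, 6.63-fold higher in the latter. Rdh9 was 3.67-fold higher (89.6 and 329) with a probe set that can read related genes, and Rdh1, of the same gene family, was at least 2.20-fold higher (31.0 in the knockout). The retinaldehyde dehydrogenase gene Aldh1a1, for the step to retinoic acid, was 2.83-fold lower (206 and 72.8). Its close relative Aldh1a7 was 2.62-fold lower (50.0 and 19.1), and since the pair is nearly identical in sequence, which of them each probe set reads was not tested. Aldh1a2, the form known from uterine stroma, had signals of 30.5 and 44.0 (log2 ratio 0.53), and Aldh1a3 was under the floor on both arrays. The brightest others, Adh5 (2368 and 2473), Dhrs4 (598 and 507) and Dhrs7 (141 and 167), were within 2-fold. Of the other retinoic acid breakdown genes only Cyp2s1 was read, with signals of 11.7, under the floor, and 20.9.

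**Figure D3:**
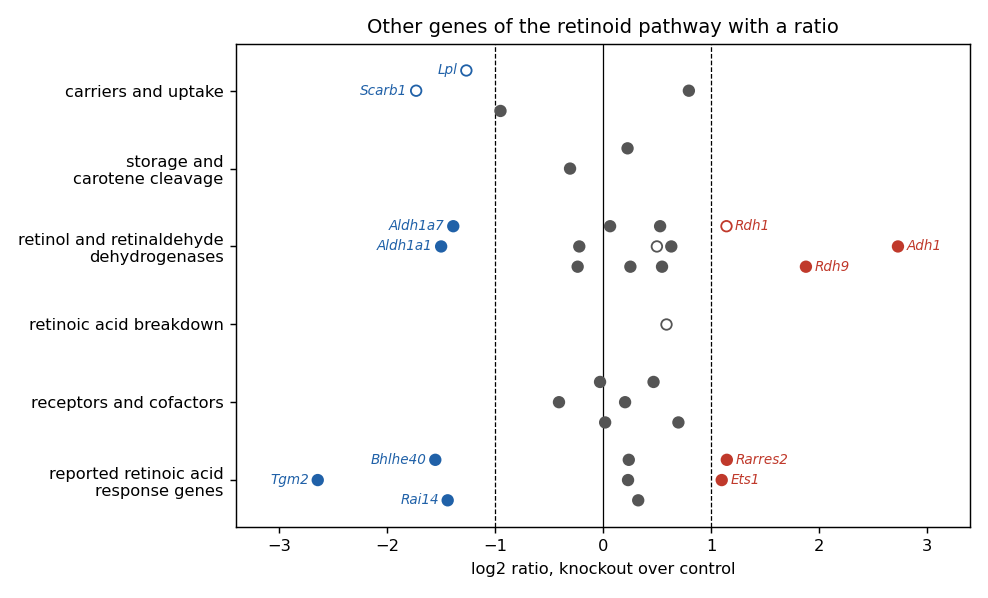
Log2 ratio (knockout over control) of the 34 other pathway genes with a ratio, 1 point per gene in 6 lists; open points are bounds with 1 array under the floor, dashed lines are the 2-fold limits, and points are spread vertically only for legibility. All 6 receptor and cofactor genes lie between the limits, and the named points outside them are 5 genes that were higher (red) and 7 that were lower (blue).

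Of the nuclear receptor and cofactor genes, 0 of 6 with a ratio were past 2-fold, a limit that 7.37% of all genes passed upwards and 9.92% downwards, so a count of 0 in 6 genes does not set them apart. Their log2 ratios lay between -0.41 and 0.70. Rarg, which encodes retinoic acid receptor gamma, had signals of 50.5 and 49.4, and the partner receptor genes Rxra and Rxrb had 95.5 and 132, and 132 and 134. Nrip1, a corepressor gene induced by retinoic acid, had 332 and 537, or 1.62-fold higher, and the coactivator gene Ncoa1 had 109 and 125. Rara, Rxrg and Ppard were under the floor on both arrays. Of the receptor genes for retinoic acid itself, Rarg was therefore the one with a measured level on these arrays at the floor used. That reading depends on the floor, since Rara had signals of 12.4 on the control array and 8.77 on the knockout array. The dimmer probe set of Rarg had 14.5 on the control array and 11.0, under the floor, on the knockout array. Stromal markers were also read on these arrays, and which cells gave the Rarg signal was not tested.

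Of 13 other genes reported to respond to retinoic acid in various cells, 8 had a ratio, 2 past the upper limit (7.37% over all genes) and 3 past the lower one (9.92%), and their median log2 ratio was 0.23. With 8 genes, these counts are given as a description. Tgm2, which encodes tissue transglutaminase, had signals of 2034 on the control array and 325 on the knockout array, 6.26-fold lower in the latter. Its 4 other probe sets over the floor gave folds of 5.09 to 7.21 in the same direction. Bhlhe40, a helix-loop-helix repressor gene that retinoic acid induces in other cells, was 2.94-fold lower (653 and 222), and Rai14 was 2.72-fold lower (57.3 and 21.1). The other Rai14 probe set was under the floor on both arrays. Rarres2, which encodes chemerin, was 2.21-fold higher (119 and 262) and 2.01-fold higher with another probe set (114 and 229). Ets1, an ETS factor gene, was 2.14-fold higher (63.7 and 136), while its other measured probe set was 1.80-fold higher (69.4 and 125). The homeobox genes Meis1 (174 and 205), Hoxb4 (128 and 150) and Meis2 (28.8 and 36.0) were within 2-fold. These response genes thus had no common direction.

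**Figure D4:**
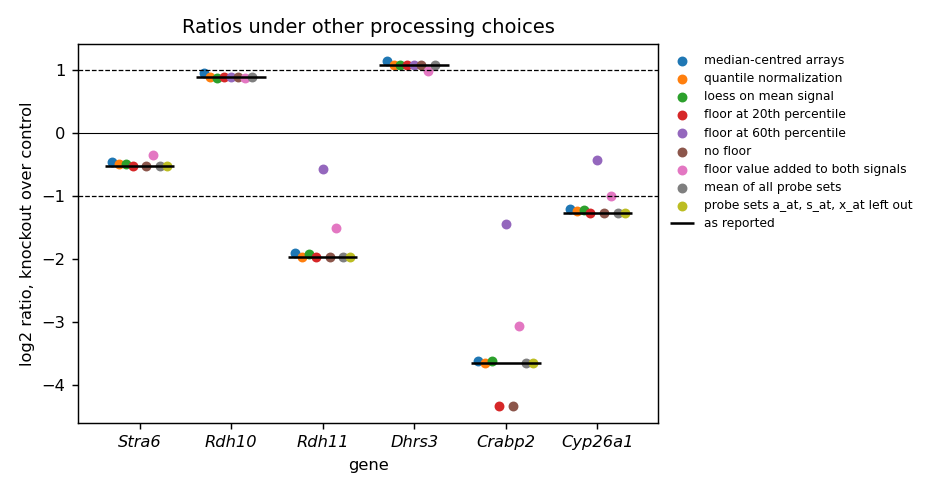
Log2 ratio (knockout over control) of the 6 retinoid genes with a ratio under 9 other processing choices (points) and as reported (black bars), with dashed lines at the 2-fold limits. No point crosses 0, which a changed floor or an added floor value could not bring about. Rdh11 and Cyp26a1 move inside the limit with the floor at the 60th percentile, at -0.58 and -0.42, and Dhrs3 with the floor value added to both signals, at 0.99.

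The calls near the limits depended on the processing, as the plot of ratios by setting shows. Crabp2 stayed past the lower limit under all 9 alternatives that gave a ratio, between -4.32 and -1.45. Rdh11 and Cyp26a1 stayed past the limit in 8 of 9, and Dhrs3 in 7 of 8. Rdh10 (0.87 to 0.95) and Stra6 (-0.53 to -0.35) stayed within it in all 8 that gave them a ratio. With the floor at 64.3, the 60th percentile, the knockout signals of Rdh11 and Cyp26a1 fell under it and their log2 ratios were -0.58 and -0.42, which are bounds.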

How the data were processed

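Uterine epithelial RNA was measured on 2 arrays, 1 control and 1 Stat3 knockout, grouped by the genotype label, with 100 ng of total RNA per array. For each probe set, the authors deposited an intensity value per array. Per the submitters' processing notes, MAS5 and Affymetrix Expression Console 1.1 were used. The intensity values were linear and already scaled to a common level, as their equal trimmed means show (2% of probe sets left out at each end). No detection calls or probe-level values were used, and hybridisation batch is not given in the sources used here.

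Of 22690 probe sets, 64 were controls. The platform annotation gives 1 gene for 20380, several for 691 and no gene for 1555, and only the first of these kinds was named. Symbols were updated by gene ID through RefSeq (GRCm38.p6), which matched 20351 of them (99.9%). Each gene took its brightest probe set by mean log2 signal over both arrays. Signals under the 40th percentile were set to it. No ratio was formed for the 4089 genes under this floor on both arrays, and for 791 the ratio is a bound. No pseudocount was used, genes were counted at 2-fold, and no test was possible. Named were all 9 members and Stat3 with their probe sets, list genes past 2-fold, and the 3 brightest others of each pathway list. Blvrb, Hbb-y, Ppbp, Tnfsf13b, Rarg, Rxra, Aldh1a2, Cd68, Pdgfra and listed genes under the floor were named after their values were seen. Members and lists were chosen with earlier results of these data known. Scripts ran in Python 3.11.15 (numpy 2.4.6, pandas 2.3.3) and were tested on simulated data. Alternatives changed the scaling, floor, probe set choice and fold limit.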

Additional observations from a re-analysis of the deposited data

How the results depend on the processing

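With 1 array per group, none of these alternatives checks animals or arrays, and no paired analysis was possible because each group has 1 sample. All signs of the 6 ratios were kept under all alternatives that gave one. A changed floor or a value added to both signals cannot reverse a sign. The probe set choice could do so only for Rdh11, which has 2 probe sets, and for the rest only the scaling could. The count of retinoid genes at least 2-fold higher was 1 as reported, 0 with the floor value added to both signals (Dhrs3 at 0.99), 0 with probe sets of suffix _a_at, _s_at or _x_at left out (the only one of Dhrs3 is _a_at, so it had no value), 2 at a 1.5-fold limit (Rdh10 joined) and 0 at 3-fold. The count at least 2-fold lower was 3 as reported and 1 with the floor at the 60th percentile, and 2 at 3-fold. Over all genes, 612 were higher and 824 lower as reported, 1927 and 1774 with no floor, 346 and 449 with the floor at the 60th percentile, 1607 and 1541 at 1.5-fold, and 143 and 401 at 3-fold. With the floor at the 20th percentile 1094 were higher. Centring, quantile and loess scaling (span 0.3) left all 4 calls in place. Signals near the floor limit what can be read for Rdh11, Cyp26a1 and Stra6.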
